A study of Rattus norvegicus with 9 samples.

Results

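rno-miR-31a-5p, rno-miR-505-3p and rno-miR-708-5p are 3 of the 1422 miRNA entries listed for 9 small RNA libraries of primary neonatal rat cardiomyocytes. They were chosen by measured values: their change against the control virus had opposite signs when Yap was raised and when it was lowered, in an earlier analysis of these read counts, after muscle-specific miRNAs and the miR-181 family had been set aside. All 3 passed the filter on low counts. The cells came from hearts of SD rats 1 to 2 days old and were sampled 48 h after adenovirus in normal glucose. The control was Ad-GFP in cells of wild-type genotype. Ad-Yap WT overexpressed Yap1, and Ad-Yap shRNA was given for its knock-down; each group has 3 libraries. The labels give neither the promoter of the viruses nor whether the libraries came from separate isolations, so every p-value refers to library-to-library spread, which may be technical. No virus with a non-targeting shRNA was among the groups, so lower Yap and expression of an shRNA cannot be told apart. Yap is not a miRNA, and its level was not measured in these libraries.

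A miRNA is cut from a hairpin precursor, whose 2 sides give a 5p and a 3p arm, and the loaded arm finds its target mRNAs mainly through its seed, bases 2 to 8. Yap is the transcriptional co-activator at the end of the Hippo kinase pathway and drives cardiomyocyte proliferation around birth. miR-31 is known from human cancer cells as a repressor of the Hippo kinase LATS2. miR-708 is known in mouse cells as a miRNA induced by endoplasmic reticulum stress, and it has been reported in cardiac progenitor cells of the rat heart. miR-505 is known from mouse fibroblasts as a repressor of the splicing factor Srsf1.

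The sequences below show that the 3 miRNAs do not share a seed, and which other entries resemble them or pair with them. All are from RefSeq, build GRCr8, matched by name, 5′ to 3′, with bases 2 to 8 in capitals. The count table carries no coordinates, and its build is rn6 per the submitters' processing notes.
miR-31a-5p (chr5:108714906-108714927, minus strand): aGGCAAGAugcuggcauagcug
miR-505-3p (minus strand): gUCAACACuugcugguuucc
miR-708-5p (chr1:160011168-160011190, plus strand): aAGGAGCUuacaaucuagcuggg
miR-28-5p, the other entry with the seed of miR-708-5p: aAGGAGCUcacagucuauugag
miR-31b, read from the opposite strand of the Mir31 locus: cUAUGCCAgcaucuugccu
miR-3589, read from the opposite strand of the Mir505 locus: gAGGAAACcagcaaguguugac
Mir31 hairpin, with both arms in capitals: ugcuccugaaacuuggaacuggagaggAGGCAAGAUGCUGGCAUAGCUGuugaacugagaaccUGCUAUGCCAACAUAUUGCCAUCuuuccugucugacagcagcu

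The 3 precursors lie on different chromosomes. In RefSeq, Mir708 lies within the protein-coding gene Tenm4, and Mir31 overlaps the long non-coding RNA gene LOC130062807. No other miRNA of the RefSeq set has the seed of miR-31a-5p or miR-505-3p. miR-708-5p and miR-28-5p are identical over bases 1 to 8 and at 16 of their first 22 bases. The differences, counted from the 5′ end with the base of miR-708-5p first, are U9C, A13G, G18U, C19U, U20G and G21A. miR-31b is the exact reverse complement of bases 1 to 19 of miR-31a-5p, and miR-3589 contains the reverse complement of all 20 bases of miR-505-3p.

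The libraries held 3.50 to 3.60 M miRNA reads (M = 1e+06) in Ad-GFP, 1.93 to 2.95 M after Ad-Yap WT and 1.48 to 2.09 M after Ad-Yap shRNA. The listed miRNAs made up 24.6 to 26.2%, 8.76 to 17.6% and 7.22 to 9.87% of the library totals implied by the deposited RPM values, in the same order. Levels are given as CPM, reads scaled to 1e+06 per library with TMM factors that centre the bulk of the miRNAs. Of the 579 tested miRNAs, edgeR called 25% in Ad-Yap WT against Ad-GFP, 41.8% in Ad-Yap shRNA against Ad-GFP and 28.5% between both Yap groups, at an adjusted p under 0.05. With TMM 89 were higher and 56 lower with Ad-Yap WT, against 74 and 71 with upper quartile factors and 51 and 104 with library size only. With Ad-Yap shRNA 139 were higher and 103 lower, against 66 and 221 with library size only. Between the Yap groups 82 were higher and 83 lower with Ad-Yap WT, against 114 and 38. The libraries of the groups did not overlap for 47.3%, 55.3% and 43.4% of them.

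Of the 428 tested miRNAs with an annotated name, 120 (28%) had opposite signs against Ad-GFP in the Yap groups, and 5 (1.17%) were called in both comparisons with opposite signs. The 5 are miR-31a-5p, miR-505-3p, miR-708-5p, the muscle miR-133a-3p and miR-181c-5p. miR-31a-5p was the only 1 of them that was higher with Ad-Yap WT and lower with Ad-Yap shRNA; the other 4 ran the other way. Just inside the threshold stood miR-505-3p, with log2 fold changes of -0.58 and 0.93. Just outside it stood miR-322-5p, a rodent relative of miR-15 and miR-16, with 0.29 and -0.70, then miR-31a-3p with 0.36 and -1.07 and miR-181d-5p with -0.28 and 0.30. Since these signs chose the 3 miRNAs, their own levels and fold changes are a description and carry no test. Both comparisons also share the Ad-GFP libraries.

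rno-miR-31a-5p was the abundant one. It stood at 11945, 10912 and 11935 CPM in Ad-GFP replicates 1 to 3, at 16078, 21735 and 17805 CPM after Ad-Yap WT, and at 6834, 6507 and 5971 CPM after Ad-Yap shRNA. Every Ad-Yap WT library lay above every Ad-GFP library, and every Ad-Yap shRNA library lay below them. By level it ranked 27 to 30 among the tested miRNAs in Ad-GFP, 18 to 21 after Ad-Yap WT and 41 to 48 after Ad-Yap shRNA. The group means were 11597 ± 594, 18539 ± 2899 and 6437 ± 436 CPM (SD, n = 3). The edgeR log2 fold change was 0.68 (SE 0.12) with Ad-Yap WT and -0.85 (SE 0.12) with Ad-Yap shRNA, and the Ad-Yap WT libraries stood 1.53 (SE 0.12) above the Ad-Yap shRNA libraries, a 2.88-fold difference. In raw reads, its count was 50690 ± 2199 in Ad-GFP, 42622 ± 9230 after Ad-Yap WT and 9288 ± 3028 after Ad-Yap shRNA. The raw counts of Ad-Yap WT and Ad-GFP overlap, and the higher level with Ad-Yap WT appears after scaling for the smaller miRNA depth of that group.

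rno-miR-505-3p was scarce. Its counts were 87, 94 and 91 reads in Ad-GFP, 53, 25 and 23 after Ad-Yap WT and 69, 54 and 45 after Ad-Yap shRNA. Scaled, this gave 19.6, 21.1 and 21.5 CPM in Ad-GFP, 16.0, 14.4 and 11.1 CPM after Ad-Yap WT and 37.3, 41.8 and 39.5 CPM after Ad-Yap shRNA. The 3 groups did not overlap on the CPM scale, with Ad-Yap shRNA highest and Ad-Yap WT lowest. Counting error alone is wide at these numbers. The 23 reads of Ad-Yap WT replicate 3 have an exact 95% Poisson interval of 14.6 to 34.5 reads, or 7.04 to 16.7 CPM, and the 87 reads of Ad-GFP replicate 1 one of 15.7 to 24.2 CPM. These 2 intervals overlap, while the lowest interval of an Ad-Yap shRNA library starts at 28.8 CPM. The log2 fold change was -0.58 (SE 0.16) with Ad-Yap WT, 0.93 (SE 0.16) with Ad-Yap shRNA and -1.51 (SE 0.16) for Ad-Yap WT against Ad-Yap shRNA. The edgeR call with Ad-Yap WT ended in 8 of the 9 runs that left out 1 library, all but the run without Ad-Yap WT replicate 1, at log2 fold changes of -0.45 without Ad-Yap WT replicate 3 to -0.62 without Ad-GFP replicate 1.

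rno-miR-708-5p lay between them in level. It stood at 671, 679.8 and 688 CPM in Ad-GFP, at 417, 417 and 523 CPM after Ad-Yap WT and at 875, 834 and 956 CPM after Ad-Yap shRNA. The Ad-GFP libraries lay close together, all Ad-Yap WT libraries were below them and all Ad-Yap shRNA libraries above. Its rank among the tested miRNAs was 107 to 108 in Ad-GFP, 122 to 143 after Ad-Yap WT and 96 to 102 after Ad-Yap shRNA. The means were 679.8 ± 8.56, 452 ± 61.0 and 888 ± 62.1 CPM (SD, n = 3). The log2 fold change was -0.59 (SE 0.11) with Ad-Yap WT, 0.39 (SE 0.11) with Ad-Yap shRNA and -0.97 (SE 0.11) for Ad-Yap WT against Ad-Yap shRNA. The rise with Ad-Yap shRNA was the smallest of the 6 changes against Ad-GFP. Its call ended without Ad-GFP replicate 1, 2 or 3 (log2 fold changes 0.36, 0.39 and 0.39) and without Ad-Yap shRNA replicate 3 (0.35). It also ended with RLE factors (0.31), upper quartile factors (0.37), library size only (-0.21) and no filter (0.27).

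**Figure D1:**
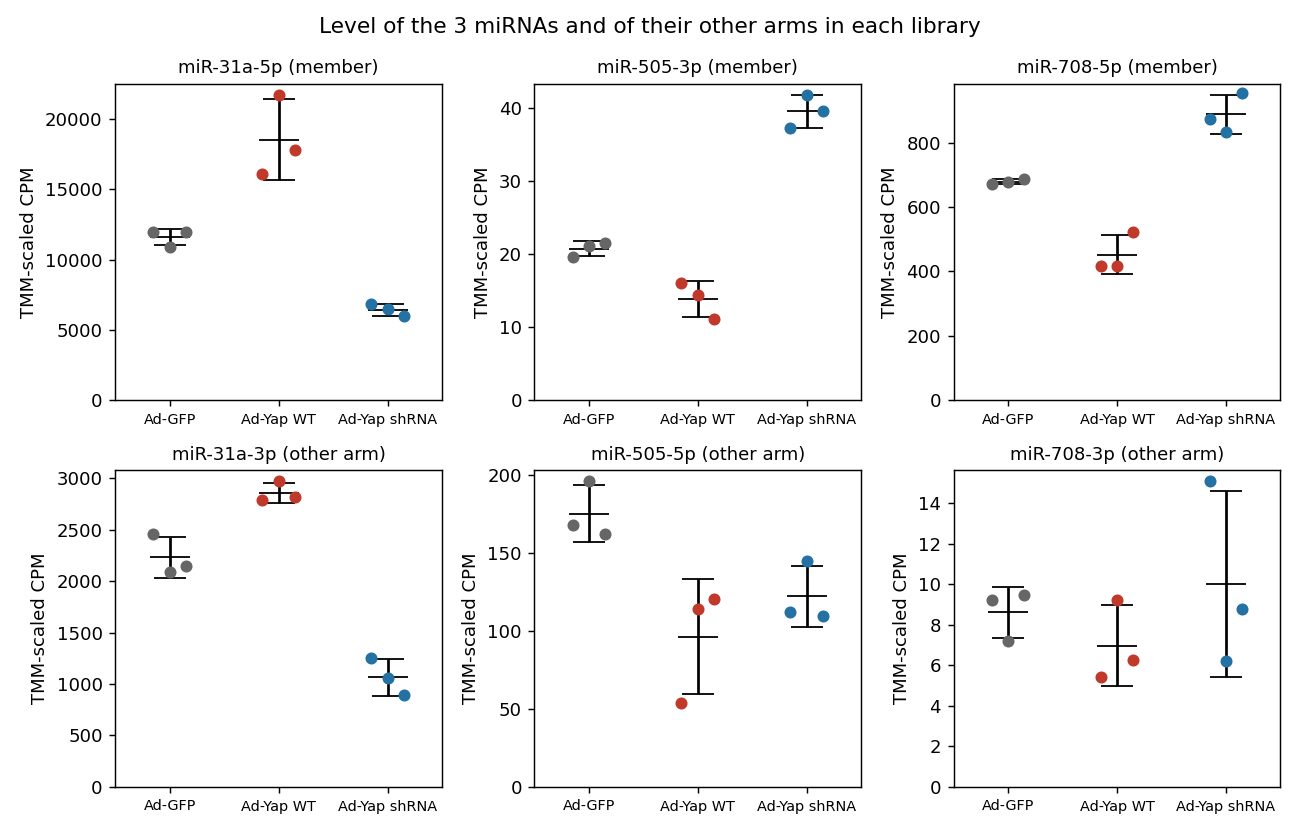
Level of miR-31a-5p, miR-505-3p and miR-708-5p (upper row) and of the other arm of each precursor (lower row), in TMM-scaled CPM on axes from 0. Each point is 1 library, and the bars show the mean ± SD of 3 libraries. In the upper row the 3 groups do not overlap; miR-31a-3p has the order of its partner, while miR-505-5p was highest in Ad-GFP, at 175 ± 18.1 CPM.

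The ratio of read counts of 2 miRNAs in the same library does not depend on how libraries are scaled. There were 17.8, 16.1 and 17.3 reads of miR-31a-5p per read of miR-708-5p in the Ad-GFP libraries, 38.6, 52.1 and 34.1 after Ad-Yap WT and 7.81, 7.80 and 6.25 after Ad-Yap shRNA. The ratio was thus 2.44 times that of Ad-GFP with Ad-Yap WT and 0.427 times with Ad-Yap shRNA, and the groups did not overlap. Reads of miR-31a-5p per read of miR-505-3p were 560.3 ± 46.3 in Ad-GFP, 1372 ± 322 after Ad-Yap WT and 163 ± 17.5 after Ad-Yap shRNA (SD, n = 3). The choice of the 3 miRNAs fixes the direction of these ratios, so they describe sizes only, and they do not show which miRNA moved.

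**Figure D2:**
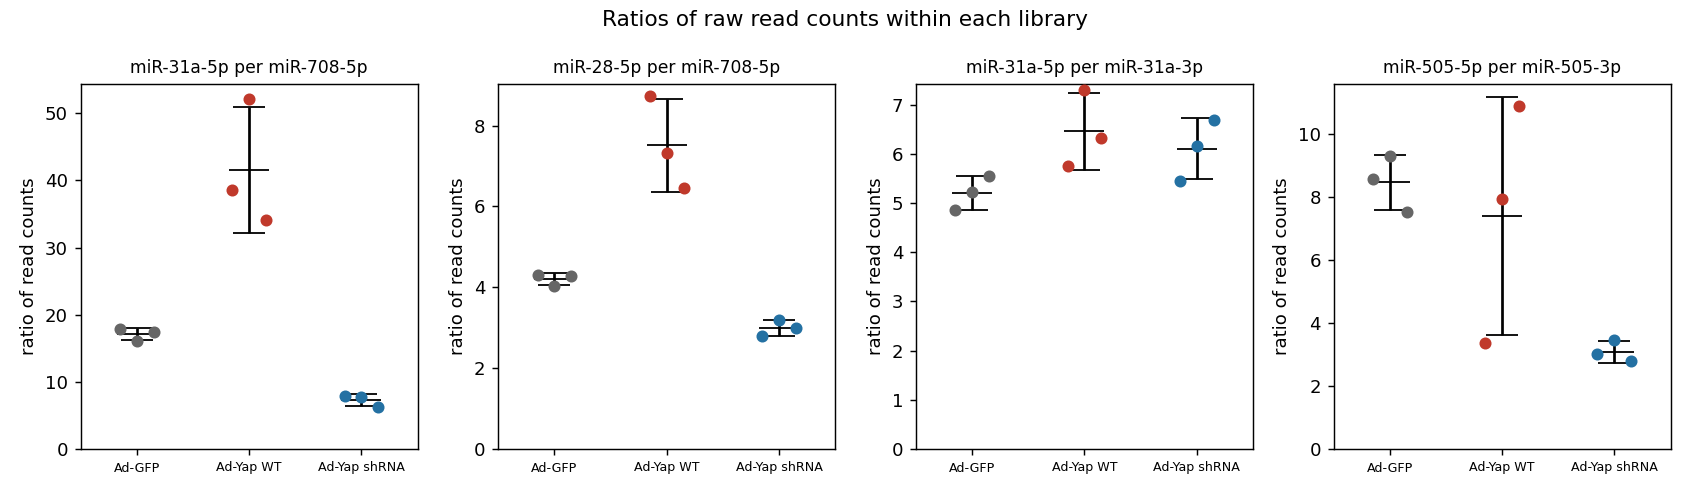
Ratios of raw read counts within each library, on axes from 0; points are libraries and bars the mean ± SD of 3. The ratio of miR-31a-5p to miR-708-5p and that of miR-28-5p to miR-708-5p are highest after Ad-Yap WT and lowest after Ad-Yap shRNA, while the arm ratio of miR-31a overlaps between the Yap groups.

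The values of the other arms did not choose the 3 miRNAs, and these arms were tested with the whole table. As annotated miRNAs they were open to the same choice. That none was called in both comparisons with opposite signs is therefore no independent result. miR-31a-3p followed its partner in the knock-down. It stood at 2460, 2086 and 2150 CPM in Ad-GFP, at 2792, 2974 and 2817 CPM after Ad-Yap WT and at 1254, 1055 and 892 CPM after Ad-Yap shRNA, with no overlap between groups. It fell by 1.07 with Ad-Yap shRNA on the log2 scale (-1.07, SE 0.13; adjusted p = 0.000793, edgeR) and was higher in Ad-Yap WT than in Ad-Yap shRNA by 1.42 (SE 0.13, edgeR adjusted p = 0.000344). Against Ad-GFP its value with Ad-Yap WT was 0.36 (SE 0.13, edgeR adjusted p = 0.075), which missed the threshold and passed without Ad-Yap shRNA replicate 3 (adjusted p = 0.0386). Both arms come from 1 precursor, so miR-31a-3p is no second locus. Reads of miR-31a-5p per read of miR-31a-3p were 5.21 ± 0.348 in Ad-GFP, 6.46 ± 0.785 after Ad-Yap WT and 6.11 ± 0.625 after Ad-Yap shRNA (SD, n = 3), and the Ad-Yap shRNA range overlaps both other groups.

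miR-505-5p did not have the pattern of miR-505-3p. It was the more abundant arm, at 168, 196 and 162 CPM in Ad-GFP, at 53.7, 114 and 121 CPM after Ad-Yap WT and at 112, 145 and 109.8 CPM after Ad-Yap shRNA. Both Yap groups lay below Ad-GFP in every library, and neither difference passed: the log2 fold change was -0.87 with Ad-Yap WT (SE 0.29, edgeR adjusted p = 0.0644) and -0.52 with Ad-Yap shRNA (SE 0.29, edgeR adjusted p = 0.2). The first passed with DESeq2 (adjusted p = 0.0119), and the second passed in fits of 2 groups (edgeR adjusted p = 0.0388) and when Ad-Yap WT replicate 1 was left out (edgeR adjusted p = 0.0339). Both also passed with library size only (edgeR adjusted p = 0.0152 and 0.00889) and with the deposited totals (edgeR adjusted p = 0.0128 and 0.000367). There were 8.55, 9.29 and 7.53 reads of the 5p arm per read of the 3p arm in Ad-GFP, 3.36, 7.92 and 10.9 after Ad-Yap WT and 3.01, 3.46 and 2.78 after Ad-Yap shRNA. The arm ratio was below that of every Ad-GFP library in all 3 Ad-Yap shRNA libraries, whereas the Ad-Yap WT libraries spread over nearly the whole range. This ratio contains the change for which miR-505-3p was chosen, and is a description with no test. miR-708-3p was near the limit of measurement, with 8 to 41 reads per library and 8.63 ± 1.26, 6.98 ± 1.99 and 10.0 ± 4.59 CPM in control, Ad-Yap WT and Ad-Yap shRNA libraries. Its log2 fold changes of -0.33 (SE 0.34) and 0.25 (SE 0.34) did not pass (edgeR adjusted p = 0.509 and 0.597), and differences of the size seen for miR-708-5p were not detectable at this depth.

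miR-28-5p shares the seed of miR-708-5p, so both could act on overlapping sets of targets, and it was the more abundant of them. It stood at 2889, 2744 and 2941 CPM in Ad-GFP, at 3643, 3055 and 3374 CPM after Ad-Yap WT and at 2445, 2650 and 2856 CPM after Ad-Yap shRNA. The order was the reverse of that of miR-708-5p, with Ad-Yap WT above Ad-GFP in every library and Ad-Yap shRNA overlapping it. It was higher in Ad-Yap WT than in Ad-Yap shRNA by 0.34 (log2 fold change, SE 0.093, edgeR adjusted p = 0.0296), but 5 of the 9 leave-one-out runs ended this call (adjusted p = 0.0506, 0.0724, 0.0917, 0.115 and 0.0804 without Ad-GFP replicate 3, Ad-Yap WT replicate 1 or 3 and Ad-Yap shRNA replicate 1 or 2). The call also ended with upper quartile factors, no filter and fits of 2 groups (edgeR adjusted p = 0.0755, 0.16 and 0.0677). Against Ad-GFP miR-28-5p passed in neither Yap group (0.23, SE 0.093, and -0.11, SE 0.093, edgeR adjusted p = 0.102 and 0.386). With Ad-Yap shRNA it passed under cyclic loess (-0.28, limma adjusted p = 0.0434) and library size only (-0.71, edgeR adjusted p = 0.00404). With the deposited totals it passed in both Yap groups, at -1.03 and -2.33 (edgeR adjusted p = 0.0498 and 0.000614). Its other arm miR-28-3p fell by 0.52 with Ad-Yap shRNA (log2 fold change -0.52, SE 0.11, edgeR adjusted p = 0.00713) and was higher in Ad-Yap WT than in Ad-Yap shRNA by 0.56 (SE 0.11, edgeR adjusted p = 0.00843).

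For each read of miR-708-5p there were 4.30, 4.04 and 4.27 reads of miR-28-5p in Ad-GFP, 8.74, 7.33 and 6.46 after Ad-Yap WT and 2.80, 3.18 and 2.99 after Ad-Yap shRNA. The ratio differed by a factor of 2.51 between the Yap groups. It contains the change for which miR-708-5p was chosen, and is a description with no test. miR-151-5p, a relative of miR-28 in sequence, fell by 0.33 with Ad-Yap shRNA (log2 fold change -0.33, SE 0.071, edgeR adjusted p = 0.00742, and 0.0527 without Ad-Yap shRNA replicate 1). Its value between the Yap groups was 0.24 (SE 0.071, edgeR adjusted p = 0.0376), which all 9 leave-one-out runs ended. miR-151-3p passed in none of the 3 comparisons (edgeR adjusted p = 0.175, 0.244 and 0.793).

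The antisense entries were miR-3589, with 92 to 357 reads per library, and miR-31b, with 1 to 59. Whether the authors' counting used the strand is not given in the labels or the table, so reads of these entries and of their partners cannot be told apart with certainty. miR-3589, opposite miR-505-3p, was singled out after its values were seen. It stood at 80.4, 61.2 and 84.0 CPM in Ad-GFP, at 56.4, 54.7 and 53.1 CPM after Ad-Yap WT and at 88.5, 121 and 80.8 CPM after Ad-Yap shRNA. The Yap groups did not overlap, and Ad-Yap WT was lower than Ad-Yap shRNA by 0.82 on the log2 scale (-0.82, SE 0.20, edgeR adjusted p = 0.0171; with library size only the adjusted p was 0.12, and with the deposited totals the sign turned). Against Ad-GFP it passed in neither group (-0.46 and 0.37, SE 0.19 each, edgeR adjusted p = 0.121 and 0.172). With Ad-Yap WT it passed with library size only (-0.76, edgeR adjusted p = 0.0382) and with the deposited totals (-1.74, edgeR adjusted p = 0.0185). With Ad-Yap shRNA and the totals it passed with the sign turned (-1.84, edgeR adjusted p = 0.00451). miR-31b had 49, 59 and 43 reads in Ad-GFP, 32, 39 and 4 after Ad-Yap WT and 10, 1 and 3 after Ad-Yap shRNA. All Ad-Yap shRNA libraries lay below all Ad-GFP libraries, at a log2 fold change of -1.86 (SE 0.84, edgeR adjusted p = 0.114), which missed the threshold and passed in fits of 2 groups (adjusted p = 0.0229) and when Ad-Yap WT replicate 3 was left out (adjusted p = 0.0376). It also passed with library size only (-2.42, edgeR adjusted p = 0.037) and with the deposited totals (-3.97, edgeR adjusted p = 0.000993).

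**Figure D3:**
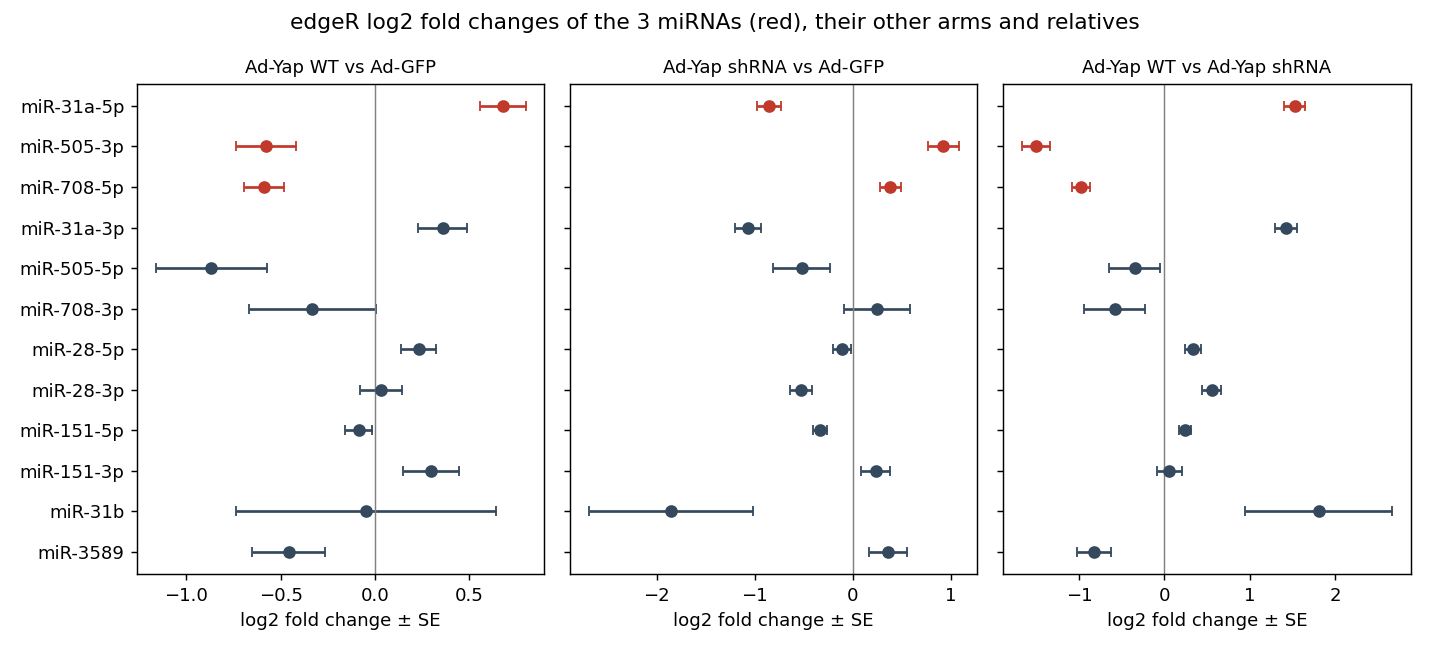
edgeR log2 fold changes with their SE in the 3 comparisons, for miR-31a-5p, miR-505-3p and miR-708-5p (red) and for their other arms, relatives and antisense entries (dark). miR-31a-3p lies on the side of miR-31a-5p in each panel, and miR-28-5p on the side opposite to miR-708-5p.

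How the libraries are scaled decides whether the 3 miRNAs are opposite in sign. With TMM, RLE or upper quartile factors or cyclic loess, all 3 had opposite signs in the Yap groups against Ad-GFP. With the raw miRNA sum as library size, the value of miR-708-5p with Ad-Yap shRNA was -0.21 and that miRNA was lower in both Yap groups. With the library totals implied by the deposited RPM values, all 3 were lower than Ad-GFP in both Yap groups. On this scale miR-31a-5p stood at 3633 ± 232, 2259 ± 807 and 443 ± 138 RPM in control, Ad-Yap WT and Ad-Yap shRNA libraries (SD, n = 3). miR-505-3p stood at 6.49 ± 0.14, 1.83 ± 1.16 and 2.67 ± 0.538 RPM, and miR-708-5p at 213 ± 3.34, 56.9 ± 24.9 and 60.2 ± 14.0 RPM. These totals shift all miRNAs together: the median log2 fold change of the 579, which library size only put at -0.27 and -0.54, was -1.26 with Ad-Yap WT and -2.15 with Ad-Yap shRNA, a shift of -1.29 and -2.19 from TMM.

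A scaling by 1 factor per library moves all its miRNAs together, so distances from that median hardly depend on the factor and add no support to the signs. Cyclic loess uses no single factor per library. It put miR-31a-5p at 0.44 and -1.30 from the median with Ad-Yap WT and Ad-Yap shRNA (log2). miR-31a-5p lay 0.65 above the median of all tested miRNAs with Ad-Yap WT and 0.89 below it with Ad-Yap shRNA after TMM scaling, and 0.58 above and 0.89 below it with the deposited totals (log2). For miR-505-3p the distances were -0.61 and 0.89 with TMM and -0.57 and 0.87 with the totals, and for miR-708-5p they were -0.62 and 0.35 with TMM and -0.64 and 0.33 with the totals. With Ad-Yap shRNA and TMM, 65.6% of the tested miRNAs had a lower fold change than miR-708-5p, so that its rise was close to the middle of the table. Between the Yap groups, which share no control, 94.8% lay below miR-31a-5p, 4.15% below miR-505-3p and 9.67% below miR-708-5p. How the 3 miRNAs were chosen fixes the direction of that comparison. With the deposited totals miR-708-5p stood at -0.08 in it, against -0.97 with TMM.

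**Figure D4:**
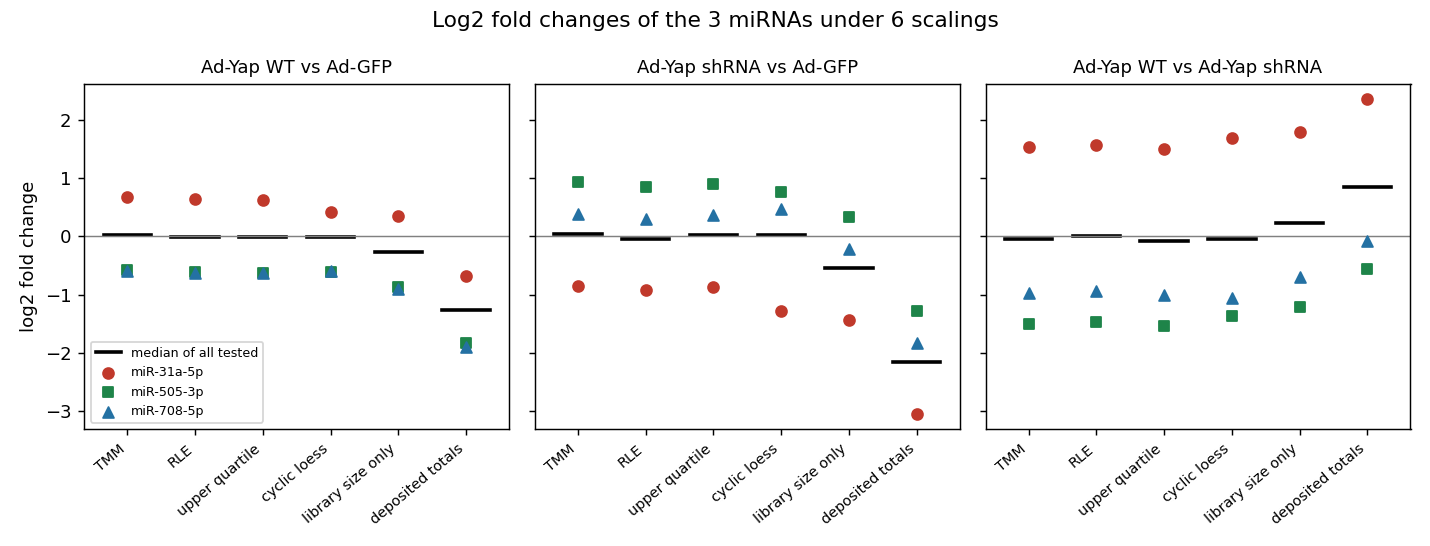
Log2 fold changes of the 3 miRNAs under 6 ways to scale the libraries, with the median of all tested miRNAs as a bar. Except with cyclic loess, the points move together with the median. With the deposited totals the medians lie at -1.26, -2.15 and 0.85. miR-31a-5p stays above, and the other 2 below, the median in the first and the last panel.

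miRNA depth differed between groups and between replicates. Replicate 1 was the deepest library of each Yap group. It had the lowest CPM of miR-31a-5p within Ad-Yap WT, 16078, and the highest within Ad-Yap shRNA, 6834. For miR-505-3p it had the highest CPM within Ad-Yap WT, 16.0, and the lowest within Ad-Yap shRNA, 37.3. For both miRNAs replicate 1 was thus the library of each Yap group nearest to the Ad-GFP mean, 11597 and 20.7 CPM. Within each Yap group miR-31a-5p lay nearer to that mean the deeper the library. For miR-708-5p replicate 1 was not the nearest in either group. It stood at 417 CPM within Ad-Yap WT, level with replicate 2, and between the other replicates within Ad-Yap shRNA, at 875 CPM. The part of depth in the differences between groups was not tested.

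The annotated miRNAs most like each of the 3 were found by Pearson's r of log2(CPM + 0.5) over the 9 libraries, among 359 others with a mean of at least 10 CPM. The libraries fall into 3 groups, so r mostly reads the group means, and these values carry no test. Closest to miR-31a-5p were miR-322-5p (r = 0.97), miR-31a-3p (0.96), miR-672-5p (0.91) and miR-34b-3p (0.89). miR-322-5p stood at 14234 ± 842, 17450 ± 1965 and 8784 ± 453 CPM in control, Ad-Yap WT and Ad-Yap shRNA libraries, the same order of groups as miR-31a-5p with smaller steps. miR-672-5p and miR-34b-3p moved mainly in 1 of the comparisons, with log2 fold changes of 0.56 and 1.04 with Ad-Yap WT and of -0.15 and -0.19 with Ad-Yap shRNA.

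Closest to miR-505-3p were miR-133a-3p (r = 0.97), miR-181c-5p (0.96), miR-342-3p (0.93) and miR-29c-5p (0.93). Its group order was shared by miR-181c-5p at 2867 ± 33.6, 2292 ± 67.5 and 5515 ± 258 CPM. Closest to miR-708-5p were miR-181d-5p (r = 0.96), miR-208a-5p (0.94), miR-425-3p (0.93) and miR-26b-5p (0.92). miR-208a-5p, from an intron of the cardiac myosin gene Myh6, stood at 3921 ± 85.0, 2798 ± 80.6 and 4608 ± 791 CPM. The least alike were miR-505-3p (-0.96) and miR-133a-3p (-0.95) for miR-31a-5p, miR-31a-5p (-0.96) and miR-322-5p (-0.96) for miR-505-3p, and miR-34b-3p (-0.96) and miR-31a-5p (-0.95) for miR-708-5p. miR-505-3p and miR-708-5p had an r of 0.88 with each other.

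Other miRNAs linked to the Hippo pathway were taken from a list of 19 reported to be induced by Yap, to target it or to target Hippo kinases, mostly in mouse and human cells. Beside miR-31a-5p, 13 of them were tested. With Ad-Yap WT 1 rose, 3 fell and 9 did not pass, against 15.4% higher and 9.67% lower among all tested miRNAs. The median log2 fold change was 0.02, and 0.03 over all 579. miR-29b-3p, reported to be induced by Yap, rose from 1079 ± 179 to 1978 ± 361 CPM, by 0.87 on the log2 scale (SE 0.20; adjusted p = 0.0168, edgeR). The falls were in miR-199a-3p (-0.43), miR-103-3p (-0.37) and miR-181c-5p (-0.32), all reported to target Hippo kinases. miR-93-5p (0.0057) and miR-107-3p (-0.051), reported likewise, did not pass (edgeR adjusted p = 0.976 and 0.929). The 4 calls ended in 2 of 9 runs without 1 library for miR-29b-3p and miR-181c-5p and in 5 for miR-199a-3p and miR-103-3p. With no filter the calls of miR-199a-3p, miR-103-3p and miR-181c-5p ended (edgeR adjusted p = 0.0625, 0.068 and 0.064). With library size only the call of miR-29b-3p ended (edgeR adjusted p = 0.0672), and with the deposited totals its sign turned. The other 4 reported to be induced by Yap, miR-206-3p (0.53), miR-29a-3p (0.57), miR-29c-3p (0.12) and miR-130a-3p (0.098), did not pass (edgeR adjusted p = 0.0532, 0.0722, 0.742 and 0.825).

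With Ad-Yap shRNA 2 of the 13 rose and 1 fell, against 24% and 17.8% of all tested miRNAs. The median was 0.27, and 0.04 over all. miR-199a-3p fell by 1.67 and miR-181c-5p rose by 0.94 on the log2 scale. miR-375-3p, reported to target Yap, was called at 1.09 (SE 0.34, edgeR adjusted p = 0.0336) from 4.29 ± 1.23 to 9.40 ± 3.01 CPM. This call ended in 5 of the 9 leave-one-out runs and with DESeq2 (adjusted p = 0.0789). It also ended with no filter, fits of 2 groups and library size only (edgeR adjusted p = 0.0933, 0.0526 and 0.217). Between the Yap groups miR-199a-3p (1.23) and miR-29b-3p (1.19) were higher with Ad-Yap WT and miR-181c-5p (-1.27) was lower, 2 and 1 of 13, against 14.2% and 14.3% of all. miR-29b-3p was thus called in the same direction as miR-31a-5p with Ad-Yap WT, and with Ad-Yap shRNA it was called in neither direction.

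Several markers of the cell types in such cultures differed from Ad-GFP in each Yap group. The striated muscle and smooth muscle sums were clear of Ad-GFP only with Ad-Yap shRNA, and the fibroblast sum only with Ad-Yap WT. These sums and calls were taken with TMM only, and how they depend on scaling was not tested. With Ad-Yap shRNA miR-133a-3p of the striated muscle list had a log2 fold change of 0.56 with TMM. It was -0.037 with library size only and -1.65 with the deposited totals. These totals moved the median of all tested miRNAs by -2.19 with Ad-Yap shRNA and -1.29 with Ad-Yap WT. The summed level of 7 striated muscle miRNAs was 46822 to 50514 CPM in Ad-GFP, 46764 to 55471 CPM after Ad-Yap WT and 87972 to 104791 CPM after Ad-Yap shRNA, and 5 of the 7 rose there and none fell, against 24% higher and 17.8% lower among all tested miRNAs. The 5 fibroblast and mesenchymal miRNAs used summed to 34796 to 38108, 39674 to 53233 and 37598 to 45703 CPM, and 4 smooth muscle and pericyte miRNAs to 13916 to 14748, 13098 to 14841 and 16478 to 21881 CPM. The 2 endothelial arms of miR-126a summed to 3581 to 4480, 5002 to 5852 and 6172 to 7429 CPM, and both rose in both Yap groups, where 15.4% of all tested miRNAs were higher with Ad-Yap WT. With Ad-Yap shRNA 1 fibroblast miRNA rose and 2 fell, 1 smooth muscle miRNA rose and 1 fell, and 1 blood cell and 1 epithelial miRNA fell. With Ad-Yap WT 1 fibroblast miRNA rose, and 1 each of the striated muscle, fibroblast, smooth muscle and blood cell miRNAs fell. The fibroblast miRNA that fell there was miR-199a-3p, at means of 2322, 1718 and 730 CPM in control, Ad-Yap WT and Ad-Yap shRNA libraries. It was also 1 of the 2 that fell with Ad-Yap shRNA, so the fibroblast sum does not stand for each member. Blood cell miRNAs (6) summed to 934 to 997, 482 to 842 and 840 to 856 CPM, and epithelial miRNAs (7) to 40.4 to 54.1, 39.2 to 52.6 and 46.4 to 48.0 CPM. No listed marker in the table was at 0 in all libraries. The part of cell makeup in the changes of miR-31a-5p, miR-505-3p and miR-708-5p was not tested, and fewer cells of a type and less RNA per cell cannot be told apart in these bulk libraries.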

How the data were processed

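The deposited table gives, per library, read counts per miRNA, whole numbers that the authors did not normalize, and RPM made by the authors from those counts. Counts divided by the deposited RPM give 1 total per library, 13.7 to 22.1 M reads; what it counts is not stated. The group means the authors also deposited, entered as scores, were not used, and no column was left without a sample. Libraries were made with a small RNA ligation kit and read as single-end 50 base reads, per the labels' protocols. Bowtie2, DESeq2 and the build rn6 are named, without versions or roles, per the submitters' processing notes.

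edgeR 4.0.16 (R 4.3.3) was run on the counts of all 9 libraries: filterByExpr left 579 miRNAs (428 annotated), TMM factors, glmQLFit and glmQLFTest with 1 mean per group (common biological CV 45.1%), Benjamini-Hochberg over the 579, threshold 0.05, two-sided; the SE was taken as the size of the log2 fold change over the root of the F statistic. Poisson intervals (95%) cover counting error only, since PCR reads are not independent molecules. The procedure was tested on simulated data, where it called 44.2 to 48.1% of 2-fold and 85.7 to 88.2% of 4-fold changes. A miRNA that did not pass may thus still have changed.

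Named were the 3 miRNAs, their other arms, entries sharing their seed, the arms of miR-28 and miR-151, the 4 most and 2 least similar miRNAs each, called Hippo linked miRNAs and those called with opposite signs. The members and lists were chosen with earlier results of these data known. Alternatives used DESeq2 1.42.0 and limma 3.58.1. RefSeq sequences matched 587 of 653 annotated names.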

Additional observations from a re-analysis of the deposited data

How the results depend on the processing

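With RLE or upper quartile factors, a filter of 10 CPM in 3 libraries, DESeq2, fits of 2 groups, the replicate block or predicted miRNAs left out, the log2 fold changes of miR-31a-5p, miR-505-3p and miR-708-5p moved by less than the spread between replicates. Library size only gave, for these 3 in order, 0.35, -0.87 and -0.90 with Ad-Yap WT, -1.44, 0.33 and -0.21 with Ad-Yap shRNA and 1.79, -1.21 and -0.69 between the Yap groups. The deposited totals gave -0.69, -1.83 and -1.90, then -3.04, -1.28 and -1.82, then 2.35, -0.56 and -0.082. Both settings shift all miRNAs of a library together. Cyclic loess gave 0.42, -1.27 and 1.70 for miR-31a-5p, and no filter gave -0.72 for miR-708-5p with Ad-Yap WT; the cause was not tested. Of the 3, the number with opposite signs was 0 with the deposited totals, and the number also called in both comparisons was 1 with library size only, 0 with the totals, 1 with no filter and 2 with RLE or upper quartile factors, DESeq2, fits of 2 groups or the block.

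Leaving out 1 library gave, for miR-31a-5p, 0.54 to 0.77 with Ad-Yap WT, -0.89 to -0.77 with Ad-Yap shRNA and 1.40 to 1.63 between the Yap groups. The ranges were -0.70 to -0.45, 0.88 to 0.99 and -1.62 to -1.39 for miR-505-3p, and -0.71 to -0.53, 0.35 to 0.43 and -1.11 to -0.91 for miR-708-5p. All 3 kept opposite signs, and 1 to 3 of them stayed called in both comparisons. Counts of called miRNAs ran from 71 to 148, 191 to 245 and 125 to 164, and were 71 without Ad-Yap WT replicate 3 and 83, 96 and 96 without Ad-GFP replicates 1 to 3. No filter gave 90 calls with Ad-Yap WT, where 1422 miRNAs were tested, and the totals gave 322 and 493 with Ad-Yap WT and Ad-Yap shRNA. With the totals 10 were higher and 312 lower, and 14 and 479. With the replicate block 132, 228 and 160 were called. Same-numbered libraries did not deviate together (r from -0.34 to 0.33, above 0.1 in 2 of 9 pairs), so this block is no pairing from the design. Under it, of the 3, the call of miR-505-3p with Ad-Yap WT ended (-0.58).

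Where a difference was called with TMM or under the alternative, signs of other named miRNAs turned in 31 values, all under these 2 scalings. With library size only and Ad-Yap shRNA they were miR-133a-3p (-0.037), miR-181d-5p (-0.30), miR-208a-5p (-0.37) and miR-26b-5p (-0.23). With the totals and Ad-Yap WT they were miR-28-5p (-1.03), miR-28-3p (-1.29), miR-322-5p (-1.06), miR-672-5p (-0.77), miR-34b-3p (-0.29), miR-29b-3p (-0.40) and miR-375-3p (-1.16). With the totals and Ad-Yap shRNA they were miR-708-3p (-1.88), miR-151-3p (-1.98), miR-3589 (-1.84), miR-133a-3p (-1.65), miR-181c-5p (-1.25), miR-342-3p (-1.55), miR-29c-5p (-2.001), miR-181d-5p (-1.92), miR-208a-5p (-2.01), miR-425-3p (-1.95), miR-26b-5p (-1.83) and miR-375-3p (-1.14). Between the Yap groups they were miR-3589 (0.099), miR-133a-3p (0.032), miR-342-3p (0.033), miR-29c-5p (0.44), miR-181d-5p (0.34), miR-208a-5p (0.22), miR-425-3p (0.18) and miR-26b-5p (0.34). Depth limits the scarce miRNAs, such as miR-375-3p with 128 reads over all libraries.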
